A study of Mus musculus with 17 samples.

Results

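The genes described here encode the axon guidance ligands and receptors: the semaphorins and their plexin and neuropilin receptors, the netrins and their receptors, the Eph receptors and ephrins, and the slits and roundabout (Robo) receptors. They were chosen by symbol alone, and the files held 70 of them among 16569 named genes. All 4 of Unc5a to Unc5d were kept as netrin receptors, although the symbol rule read to the letter would have left them out. Where a gene had several RefSeq messenger RNA entries (12 of the 70), the entry with the highest mean stood for it. All mice were male C57Bl/6, with no other allele or treatment named, and RNA was taken separately from left (LV) and right (RV) ventricles. The ages were postnatal day 0 (P0, before the ductus arteriosus closes), day 3 (P3, a transition stage) and day 7 (P7, when most cardiomyocytes differentiate terminally). There were 3 libraries for LV P0, LV P3, LV P7, RV P0 and RV P3, and 2 for RV P7, labelled as biological replicates. Libraries were made from whole-ventricle total RNA.

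Guidance cues were first described as signals that attract or repel growing axons, and they act on many other migrating cells. Semaphorins bind plexins, and the secreted class 3 semaphorins do so mostly together with a neuropilin. Netrins bind Dcc and the Unc5 receptors, slits bind Robo receptors, and membrane-bound ephrins bind Eph receptors on the neighbouring cell. In the heart these families are known from the patterning of vessels, from septation of the outflow tract and from the guidance of sympathetic nerves.

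The following features of the libraries bear on every result below. The entry NM_008710, unnamed in the reference tables, stood at 2.99 to 15.6 RPKM in all P0 libraries and at 3.19 to 14.6 in the first replicate of each P3 and P7 group, but at 0.128 to 0.205 in the other 7 P3 and P7 libraries. The libraries therefore differed in more than chamber and age. All P0 libraries were on the high side and 7 P3 and P7 libraries on the low side. In each comparison with P0, age and this difference are thus partly confounded. A fit limited to the 10 libraries with at least 1 RPKM at this entry is given beside the counts below. That subset holds 1 library in each P3 and P7 group, so its spread came from the P0 libraries and the lone library was assumed to vary like them. The other feature is scale: from P0 to P7 the median of all tested entries moved by -0.31 in the LV and by -0.29 in the RV on the log2(RPKM + 1) scale as deposited, and by -0.02 in both chambers after each library was scaled by its upper quartile. Directions are given as deposited, and where this scaling or leaving out 1 library ends a call of P7 against P0, that is said. Libraries held about 27600000 to 41100000 reads (median 36200000), and the fewest reads behind a tested gene in any library were 25, for Sema4g. Markers were summed to describe the tissue: 8 cardiomyocyte genes summed to 27200 to 40800 RPKM per library. The 6 atrial genes summed to 855 to 1240 RPKM at P0 and to 68.4 to 335 at P7. These sums are no check of ventricular identity, and whether the P0 libraries held atrial tissue was not tested.

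Of the 70 genes, 39 reached 1 RPKM in at least 2 libraries and were tested. They comprised 11 of 20 semaphorins, 7 of 9 plexins, 1 of 2 neuropilins, 2 of 6 netrins, 2 of 5 netrin receptors, 6 of 13 Eph receptors, 6 of 8 ephrins, 2 of 3 slits and 2 of 4 Robo receptors. RPKM counts reads per transcript length and library size, so levels can be set side by side between genes. By the mean over all 17 libraries, Efnb3 stood first at 58.9 RPKM, followed by Plxnd1 at 48.6, Nrp1 at 32.4, Ntn1 at 27.3 and Ntn4 at 14.3. Efnb2 and Robo4 (12.9 each), Efnb1 (11.9) and Sema7a (11.8) came next, and each gene in this order overlapped the next in its range over libraries. Another 27 genes had means from 1 to 10 RPKM and 3 had means under 1. For every ligand-receptor system at least 1 ligand and 1 receptor were therefore measured.

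**Figure D1:**
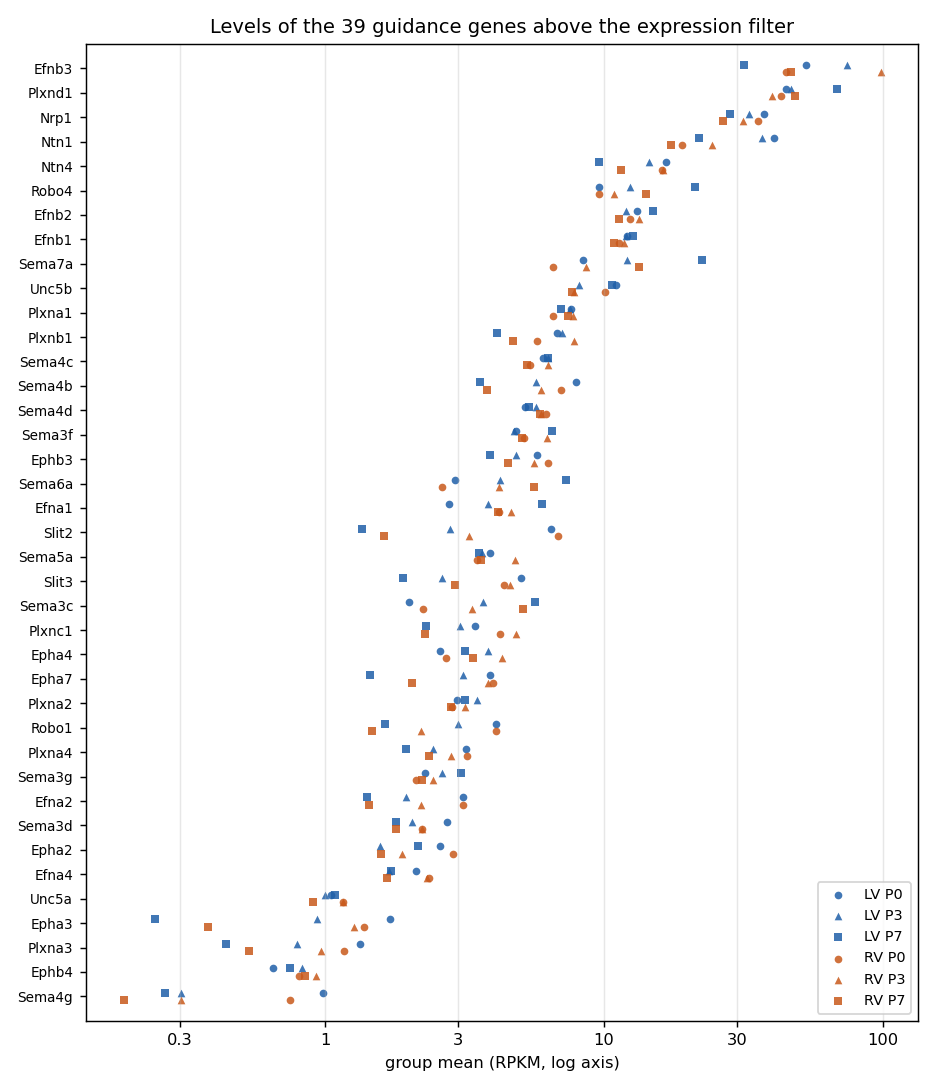
Mean level of each of the 39 tested guidance genes in the 6 groups (RPKM, log axis, blue for LV and orange for RV, with a different marker for each age). Efnb3, Plxnd1, Nrp1 and Ntn1 have the highest means over all libraries, and Slit2, Epha3 and Sema4g show wide gaps between the ages.

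From P0 to P7 the guidance genes moved in both directions. In the LV, 7 of the 39 rose and 17 fell, where 11.8% of all 10668 tested entries were higher and 53.0% lower (limma with trend, Benjamini-Hochberg adjusted p under 0.05). In the RV, 4 rose and 12 fell, beside 9.81% higher and 46.1% lower over all entries. The median log2 change of the 39 was -0.19 (LV) and -0.17 (RV). Both chambers shared 4 rising genes, Sema7a, Sema3c, Sema6a and Robo4. They also shared 10 falling genes, among them Slit2, Robo1, Epha3, Epha7, Efna2 and Sema4b. After upper-quartile scaling the split was 14 higher and 13 lower in the LV (24.4% and 25.3% of all entries) and 7 higher and 8 lower in the RV (19.8% and 20.6%). When the fit was limited to the 10 libraries described above, 5 of the 7 LV rises and 8 of the 17 LV falls passed (8.09% and 28.6% of all entries were higher and lower). Of the RV changes, 4 of 4 rises and 6 of 12 falls passed there (6.07% and 34.3%). With 1 library at P7, these counts say little about which changes hold. The LV calls not made there were those of Plxnd1, Sema3f, Efna2, Efnb3, Ephb3, Nrp1, Plxna4, Plxnb1, Robo1, Sema3d and Sema4g, and the RV calls were those of Efna2, Epha2, Epha3, Ntn4, Plxnc1 and Sema4g. All 24 LV and 16 RV changes kept their sign there. That was largely fixed in advance, since these libraries are part of the main fit and only called changes were looked at. In bulk tissue, fewer cells of a type and less RNA per cell cannot be told apart.

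**Figure D2:**
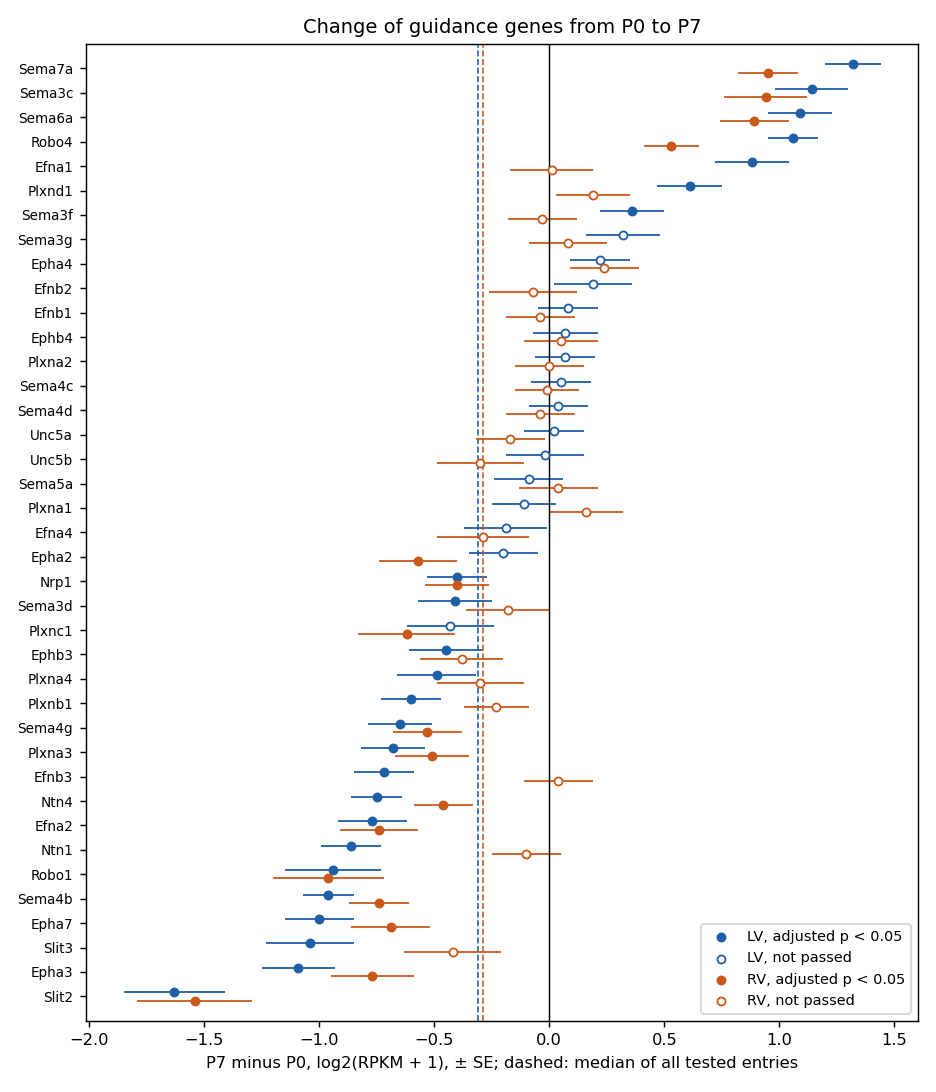
Change from P0 to P7 of each tested guidance gene in LV (blue) and RV (orange), as the difference in log2(RPKM + 1) with its standard error. Filled points passed the test, dashed lines mark the median of all tested entries, and Slit2 lies lowest in both chambers while Sema7a lies highest on this scale.

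A few promoters are shown because their genes span the movement: on the log2(RPKM + 1) scale Slit2 fell most and Sema7a rose most, and Robo1 and Robo4 are members of 1 receptor family that moved in opposite directions. Each is the 250 bases before a transcript start listed by RefSeq (GRCm38.p6), read 5′ to 3′ on the gene's strand, which is the plus strand for all of them. Capitals mark a GC box (GGGCGG, the core that Sp1-type factors bind) or a TATA box (TATAAA), on either strand. The windows are chr5:47982905-47983154 for Slit2, chr9:57939862-57940111 for Sema7a, chr16:72662899-72663148 for Robo1 and chr9:37401722-37401971 for Robo4.
Slit2: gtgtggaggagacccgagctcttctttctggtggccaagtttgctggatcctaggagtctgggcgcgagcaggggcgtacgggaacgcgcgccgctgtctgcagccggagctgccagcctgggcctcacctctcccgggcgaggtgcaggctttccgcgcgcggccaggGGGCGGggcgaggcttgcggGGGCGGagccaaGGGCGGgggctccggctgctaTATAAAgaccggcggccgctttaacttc
Sema7a: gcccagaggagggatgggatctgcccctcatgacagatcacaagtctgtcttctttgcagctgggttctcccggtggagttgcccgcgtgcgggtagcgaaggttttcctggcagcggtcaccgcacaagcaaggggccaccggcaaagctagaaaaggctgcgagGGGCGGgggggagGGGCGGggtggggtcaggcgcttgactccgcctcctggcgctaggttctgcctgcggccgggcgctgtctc
Robo1: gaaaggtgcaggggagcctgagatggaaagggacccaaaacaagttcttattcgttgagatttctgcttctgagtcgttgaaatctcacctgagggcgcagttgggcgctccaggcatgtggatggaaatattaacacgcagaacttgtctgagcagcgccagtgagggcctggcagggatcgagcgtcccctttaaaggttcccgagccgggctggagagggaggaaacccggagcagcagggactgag
Robo4: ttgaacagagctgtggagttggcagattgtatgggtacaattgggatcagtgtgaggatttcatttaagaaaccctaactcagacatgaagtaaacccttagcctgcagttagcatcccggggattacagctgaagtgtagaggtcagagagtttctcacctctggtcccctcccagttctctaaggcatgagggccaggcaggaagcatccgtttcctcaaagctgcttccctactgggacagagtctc
Slit2 carried 3 GC boxes and 1 TATA box, Sema7a carried 2 GC boxes, and neither motif was found in the Robo1 and Robo4 windows. Their G and C content was 69.6% for Slit2, 66.4% for Sema7a, 56.0% for Robo1 and 49.6% for Robo4. Over the promoter table, 33 of the 39 tested genes had 39 windows, of which 79.5% held a GC box and 5.13% a TATA box. Among windows of all genes with a tested entry, 59.0% held a GC box and 6.54% a TATA box, and among all 32851 windows 32.7% and 12.4%. The ETS core (CCGGAA), the E-box (CACGTG) and the GATA motif (AGATAA), also searched on both strands, occurred in 10.3%, 2.56% and 5.13% of the 39 windows and in 22.4%, 8.49% and 5.70% of the windows of genes with a tested entry. These searches describe letters only, and which start site the libraries used was not measured.

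Among the semaphorins, the largest rise on the log2(RPKM + 1) scale was that of Sema7a (chr9:57939596-57962865), a membrane-anchored semaphorin that signals through integrins and plexin C1. Its level in the LV was 9.05, 9.20 and 6.98 RPKM at P0, 12.4, 11.6 and 12.2 at P3, and 22.7, 21.2 and 23.4 at P7. The RV held 7.88, 6.42 and 5.31 at P0, 9.31, 8.11 and 8.55 at P3, and 13.9 and 13.0 at P7. No library of an age overlapped with the next age in the same chamber. The P7 to P0 difference was 1.32 ± 0.12 (SE) on the log2 scale in the LV, a 2.67-fold ratio of RPKM means, with an adjusted p of 2.71e-08 by limma. In the RV it was 0.95 ± 0.13, a 2.05-fold ratio, with an adjusted p of 1.05e-05 by limma. Both steps also passed in each chamber, P0 to P3 by 0.49 in the LV and 0.37 in the RV and P3 to P7 by 0.84 and 0.58. The RV step from P0 to P3 did not pass without RV P0 replicate 3 or RV P3 replicate 1, nor that from P3 to P7 without RV P7 replicate 1.

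Sema3c and Sema6a rose beside it. Sema3c, a secreted semaphorin known for its role in outflow tract septation, was at 2.02, 1.89 and 2.07 RPKM in the LV at P0, 3.94, 3.09 and 4.01 at P3 and 4.90, 5.82 and 6.18 at P7. Its RV values were 3.34, 1.60 and 1.81 at P0, 3.37, 2.80 and 3.91 at P3 and 4.30 and 5.95 at P7. The P0 and P7 libraries did not overlap in either chamber, and the P0 to P7 rise was 1.14 ± 0.16 (LV) and 0.94 ± 0.18 (RV) (limma adjusted p = 8.57e-06 and 0.000319). As a ratio of RPKM means this was 2.82-fold and 2.28-fold, more than the ratios of Sema7a. Sema6a, a transmembrane semaphorin that binds A-type plexins, stood at 3.55, 2.52 and 2.66 RPKM at LV P0, 4.50, 3.80 and 4.34 at LV P3 and 7.19, 6.91 and 7.82 at LV P7. Its RV libraries held 3.50, 2.29 and 2.07 at P0, 4.47, 4.53 and 3.62 at P3 and 5.94 and 5.26 at P7. P7 lay above P0 in every library of both chambers, with rises of 1.09 ± 0.14 and 0.89 ± 0.15 (limma adjusted p = 1.99e-06 and 0.000111). Sema3f, a secreted repellent that acts through neuropilins, was at 5.02, 3.92 and 5.57 RPKM at LV P0 and 6.17, 5.57 and 7.76 at LV P7. The LV ages touched at 5.57, and the rise of 0.36 ± 0.14 (limma adjusted p = 0.0278) did not pass without LV P0 replicate 2 or LV P7 replicate 3 (0.24 each). In the RV, Sema3f changed by -0.03, which turned to 0.25 after upper-quartile scaling, and neither value passed.

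Sema4b fell most of the semaphorins on the log2(RPKM + 1) scale, and Sema4g by the ratio of RPKM means. Sema4b, a transmembrane class 4 semaphorin, was at 8.90, 7.29 and 7.69 RPKM at LV P0, 6.34, 5.35 and 5.47 at LV P3 and 3.66, 3.20 and 3.90 at LV P7. The RV libraries were at 8.05, 6.16 and 6.88 at P0, 5.91, 6.34 and 5.52 at P3 and 3.55 and 4.04 at P7. Every P7 library lay below every P0 and P3 library, and the P0 to P7 change was -0.96 ± 0.11 (LV) and -0.74 ± 0.13 (RV) (limma adjusted p = 7.87e-07 and 8.91e-05). Scaled by the upper quartile, the RV change was -0.47. Sema4g also fell in both chambers, by 0.65 and 0.53 on the log2 scale. Its group means went from 0.985 and 0.747 RPKM at P0 to 0.266 and 0.189 at P7. This was a 3.70-fold and a 3.95-fold ratio, beside 2.22 and 1.85 for Sema4b. Sema4g reached 1 RPKM in P0 libraries only and so entered the test through its P0 level. Its fall and its rank by ratio are therefore partly set by the filter. Its RV fall did not pass without RV P7 replicate 1. Sema3d passed in the LV alone (-0.41), a call that ended after upper-quartile scaling and without LV P0 replicate 1, LV P0 replicate 3 or LV P7 replicate 1. Sema3g, Sema4c, Sema4d and Sema5a passed in neither chamber as deposited, with LV changes from -0.09 to 0.32.

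Of the plexins, which transmit semaphorin signals into the cell, Plxnd1 had the highest level. Plexin D1 (chr6:115954811-115995339) is known from endothelial cells, where it reads class 3 semaphorins. The LV libraries held 54.0, 40.1 and 40.2 RPKM at P0, 49.2, 42.0 and 49.6 at P3 and 66.2, 61.7 and 77.1 at P7. The RV libraries held 55.6, 36.7 and 37.2 at P0, 40.7, 42.1 and 37.5 at P3 and 47.2 and 49.4 at P7. All LV P7 libraries exceeded all other LV libraries, whereas RV P7 lay inside the range of RV P0. The rise was 0.61 ± 0.14 in the LV (limma adjusted p = 0.000957; 0.96 after upper-quartile scaling). In the RV the difference was 0.19 ± 0.16 (limma adjusted p = 0.319), which passed at 0.51 after that scaling. The LV value in the 10 libraries above was 0.57, with a limma adjusted p of 0.0827.

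Plxnc1, the plexin C1 receptor of Sema7a, was at 6.37, 2.62 and 3.68 RPKM at RV P0, 4.40, 5.22 and 4.85 at RV P3 and 1.81 and 2.75 at RV P7. One P0 library lay below the upper P7 library, so the groups overlapped. The RV fall of 0.62 ± 0.21 on the log2 scale (limma adjusted p = 0.017) did not pass after upper-quartile scaling (-0.38), without RV P0 replicate 1 (-0.34) or without RV P7 replicate 1 (-0.41). In the LV it was at 3.99, 2.73 and 3.64 RPKM at P0, 3.47, 2.91 and 2.75 at P3 and 2.20, 2.15 and 2.52 at P7, and its change of -0.43 did not pass. Plxna3 fell by 0.68 in the LV and 0.51 in the RV, the latter not without RV P7 replicate 1. It reached 1 RPKM in P0 and P3 libraries only, so its fall to P7 is partly set by the filter. Plxnb1, a receptor for Sema4d, fell by 0.60 in the LV. Plxnb1 first rose by 0.39 in the RV from P0 to P3 and then fell there by 0.62 to P7. Plxna4 fell in the LV by 0.49, which did not pass after upper-quartile scaling or without LV P0 replicate 1 or LV P7 replicate 1. Plxna1 and Plxna2 passed in neither chamber as deposited. Neuropilin 1, the co-receptor for class 3 semaphorins and for VEGF, had group means of 37.6, 33.0 and 28.3 RPKM in the LV and 35.6, 31.5 and 26.7 in the RV from P0 to P7. Its fall of 0.40 in each chamber did not pass after upper-quartile scaling, where the changes were -0.05 and -0.09, nor in the LV without LV P0 replicate 3, nor in the RV without RV P0 replicate 3 or either RV P7 library.

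Netrin 1 differed between chambers as well as ages. Ntn1 (chr11:68209364-68386826), a secreted cue that attracts or repels according to the receptor, was at 46.0, 36.8 and 39.6 RPKM at LV P0, 37.4, 36.0 and 36.9 at LV P3 and 21.3, 19.7 and 25.0 at LV P7. The RV held 25.1, 15.8 and 16.3 at P0, 24.4, 25.5 and 23.4 at P3 and 16.1 and 18.6 at P7. Thus LV P7 lay below all earlier LV libraries, and RV P0 and RV P7 overlapped. The P0 to P7 change was -0.86 ± 0.13 in the LV (limma adjusted p = 2.09e-05), of which the step from P3 to P7 was -0.72 ± 0.13. With upper-quartile scaling the LV change was -0.52 and still passed. In the RV it was -0.10 ± 0.15, which turned to 0.21 after upper-quartile scaling, and neither passed. Between RV P0 and P3 the groups overlapped and the rise of 0.37 passed (limma adjusted p = 0.0414), though not without either of RV P0 replicates 2 and 3 or any 1 RV P3 library.

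Ntn4, a basement membrane netrin, went from group means of 16.7 and 16.2 RPKM at P0 to 9.58 and 11.5 at P7 in LV and RV. It fell by 0.75 in the LV and 0.46 in the RV, the latter not after upper-quartile scaling (-0.16) or without RV P7 replicate 2. Among the netrin receptors, Unc5b, which is known from endothelial cells, had group means from 7.67 to 11.0 RPKM, and Unc5a from 0.901 to 1.16. Neither passed between any ages in either chamber as deposited. After upper-quartile scaling Unc5b was called higher from P3 to P7 in the LV. Dcc, the classical attractive netrin receptor, stayed below the filter, with a highest value of 0.179 RPKM. Its recovered reads were 71, 17 and 60 at LV P0, 8, 6 and 24 at LV P3 and 0 in each LV P7 library. They were 66, 10 and 17 at RV P0, 10, 3 and 10 at RV P3 and 0 and 2 at RV P7. A count of 0 allows up to 3 reads in a library. In the fit with no filter on low values its change from P0 to P7 was -0.17 ± 0.05 in the LV (limma adjusted p = 0.0083) and -0.11 ± 0.05 in the RV (limma adjusted p = 0.119).

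The slits and their receptors split. Slit2 (chr5:47981291-48307735), a large secreted repellent that binds Robo receptors, fell more than any other tested guidance gene in both chambers on the log2(RPKM + 1) scale. By the ratio of RPKM means Epha3 fell more in the LV, a rank partly set by the filter, since Epha3 reached 1 RPKM in no P7 library. Slit2 stood at 7.86, 4.52 and 6.94 RPKM at LV P0, 3.50, 1.92 and 2.99 at LV P3 and 1.21, 1.29 and 1.55 at LV P7. The RV values were 6.73, 4.55 and 9.30 at P0, 3.70, 2.10 and 4.01 at P3 and 1.46 and 1.80 at P7. Within each chamber the 3 ages did not overlap. The change from P0 to P7 was -1.63 ± 0.22 (LV) and -1.54 ± 0.25 (RV) (limma adjusted p = 4.12e-06 and 4.83e-05), a 4.76-fold and a 4.20-fold ratio of RPKM means. The step from P0 to P3 passed in both chambers, at -0.96 and -0.86.

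Slit3 (chr11:35121456-35708507), a second slit, was at 6.46, 3.97 and 4.68 RPKM at LV P0, 2.90, 2.03 and 2.95 at LV P3 and 1.94, 1.70 and 2.06 at LV P7. In the RV it was at 6.01, 2.94 and 4.22 at P0, 5.07, 3.47 and 5.29 at P3 and 2.95 and 2.89 at P7. LV P3 already lay below LV P0, whereas RV P3 lay inside the range of RV P0. The LV changes were -0.73 ± 0.19 to P3 and -1.04 ± 0.19 to P7 (limma adjusted p = 0.00683 and 9.01e-05), and the former did not pass without LV P0 replicate 1. The RV changes of 0.08 to P3 and -0.42 to P7 did not pass.

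Robo1, a slit receptor, fell with Slit2. Its LV libraries held 4.81, 3.19 and 4.29 RPKM at P0, 3.37, 2.20 and 3.45 at P3 and 1.66, 1.60 and 1.66 at P7. Its RV libraries held 6.72, 2.4 and 3.15 at P0, 2.46, 1.79 and 2.36 at P3 and 1.29 and 1.64 at P7. P0 and P7 did not overlap in either chamber, and the changes were -0.94 ± 0.21 and -0.96 ± 0.24 (limma adjusted p = 0.000865 and 0.00244). Without RV P0 replicate 1, the highest library, the RV change was -0.61. The LV change in the 10 libraries above was -0.93, with a limma adjusted p of 0.0733. Robo4 (chr9:37401902-37414023), the Robo receptor known from endothelial cells, moved the other way. It was at 10.1, 9.82 and 8.88 RPKM at LV P0, 13.3, 10.7 and 13.2 at LV P3 and 19.3, 19.5 and 24.7 at LV P7. The RV held 10.2, 9.51 and 9.08 at P0, 12.3, 10.3 and 10.1 at P3 and 14.7 and 13.8 at P7. Every P7 library exceeded every earlier library of its chamber, with rises of 1.06 ± 0.11 in the LV and 0.53 ± 0.12 in the RV (limma adjusted p = 2.36e-07 and 0.00168). The RV rise was 0.83 after upper-quartile scaling.

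**Figure D3:**
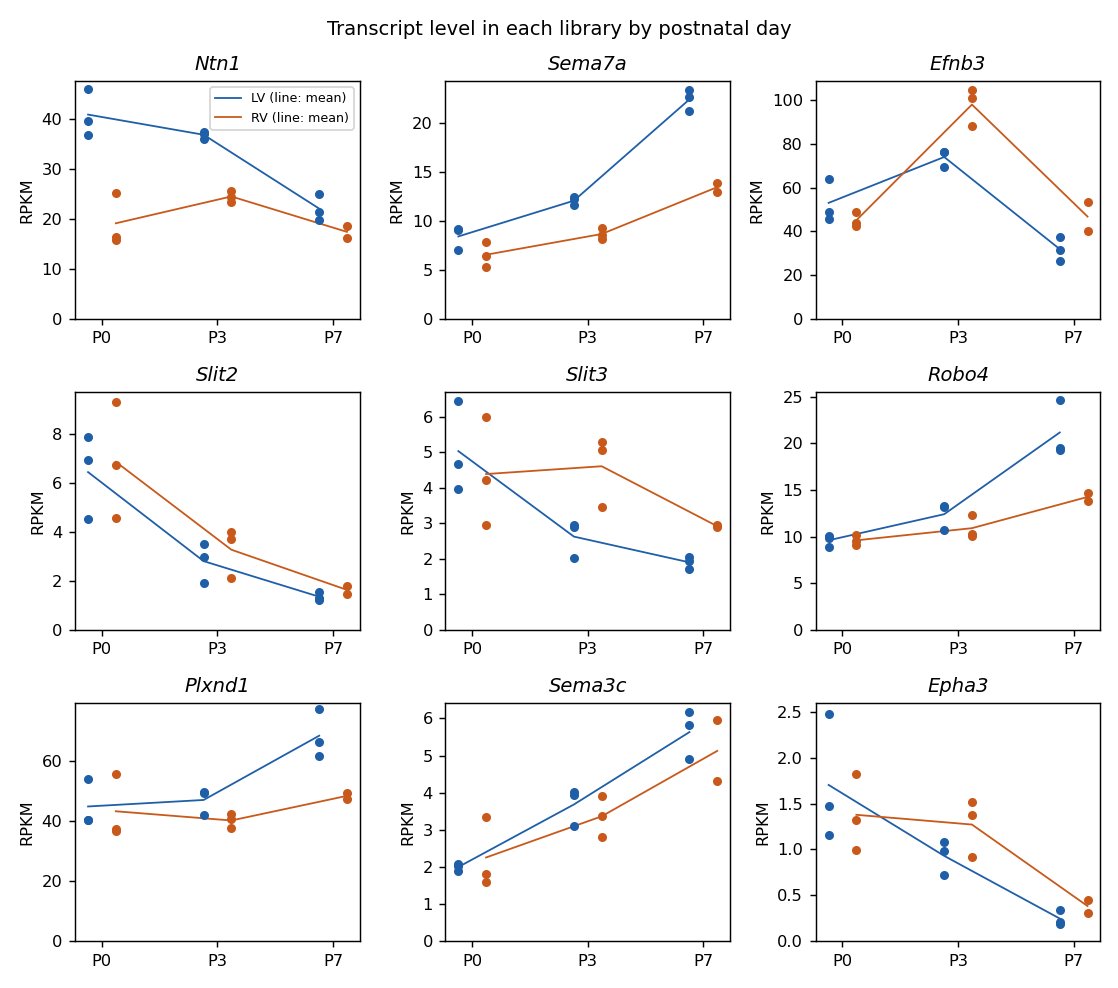
RPKM of 9 guidance genes in every library by postnatal day, with LV in blue and RV in orange; points are libraries and lines join group means. Ntn1 is higher in LV at P0 and P3, Efnb3 peaks at P3, Slit2 and Epha3 go down with age, and Sema7a, Robo4 and Sema3c go up.

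Among the ephrins, Efnb3 peaked at P3. Ephrin B3 (chr11:69554092-69561150), a transmembrane ligand of Eph receptors, was at 64.2, 49.1 and 45.9 RPKM at LV P0, 76.6, 76.4 and 69.3 at LV P3 and 37.6, 26.6 and 31.4 at LV P7. In the RV it was at 49.1, 42.5 and 43.7 at P0, 101, 105 and 88.4 at P3 and 53.6 and 40.0 at P7. All P3 libraries exceeded all P0 and P7 libraries of the same chamber. The rise to P3 was 0.49 ± 0.13 (LV) and 1.10 ± 0.13 (RV) (limma adjusted p = 0.011 and 4.80e-06), the former not passing without LV P0 replicate 3. The fall from P3 to P7 was 1.20 ± 0.13 and 1.06 ± 0.15 (limma adjusted p = 5.14e-06 and 0.000162). As a result P7 lay below P0 in the LV by 0.72 ± 0.13 (limma adjusted p = 0.000148). That fall was 0.37 after upper-quartile scaling, and 0.47 without passing in the 10 libraries above. In the RV the P7 to P0 difference was 0.04 ± 0.15.

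Of the A-type ephrins, which are held to the membrane by a lipid anchor, Efna2 fell and Efna1 rose. Efna2 was at 3.73, 2.33 and 3.31 RPKM at LV P0, 1.83, 1.92 and 2.08 at LV P3, 1.54, 1.05 and 1.65 at LV P7, 4.07, 2.62 and 2.62 at RV P0, 2.06, 2.53 and 2.05 at RV P3, and 1.66 and 1.22 at RV P7. P0 and P7 did not overlap, and the falls were 0.77 ± 0.15 in the LV and 0.74 ± 0.17 in the RV (limma adjusted p = 0.000236 and 0.00127). These were 0.68 and 0.61 in the 10 libraries above and did not pass. Efna1 was at 3.30, 2.63 and 2.41 RPKM at LV P0, 3.47, 3.45 and 4.58 at LV P3 and 6.71, 4.43 and 6.87 at LV P7, and its LV rise was 0.88 ± 0.16 (limma adjusted p = 0.00012). Its RV values were 5.14, 3.14 and 4.29 at P0, 4.88, 5.11 and 3.95 at P3 and 4.44 and 3.92 at P7, where P0 and P7 overlapped and the change was 0.01 ± 0.18. Efnb1, Efnb2 and Efna4 passed in neither chamber as deposited.

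From P0 to P7 the Eph receptors, tyrosine kinases that bind ephrins, fell or did not pass as deposited. Epha3 fell to the lowest level of them: its LV libraries held 2.48, 1.16 and 1.47 RPKM at P0, 1.08, 0.723 and 0.983 at P3 and 0.184, 0.341 and 0.207 at P7. Its RV libraries held 1.82, 1.32 and 0.991 at P0, 1.52, 0.912 and 1.38 at P3 and 0.452 and 0.310 at P7. All P7 libraries lay below all others. Epha3 reached 1 RPKM in P0 and P3 libraries only and so entered the test through those ages. Its fall to P7 and its rank by ratio are therefore partly set by the filter. The change was -1.09 ± 0.16 (LV) and -0.77 ± 0.18 (RV) (limma adjusted p = 1.14e-05 and 0.00147). At such low levels the pseudocount of 1 shrinks the change: with a pseudocount of 0.1 it was -2.35 and -1.60, and the ratios of RPKM means were 6.99 and 3.61. Its RV change was -0.70 in the 10 libraries above and did not pass.

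Epha7 was at 3.94, 3.30 and 4.43 RPKM at LV P0, 3.73, 2.53 and 3.14 at LV P3, 1.38, 1.71 and 1.26 at LV P7, 5.28, 2.85 and 3.90 at RV P0, 3.88, 3.78 and 3.83 at RV P3, and 1.89 and 2.19 at RV P7. The drop lay between P3 and P7 in both chambers (-0.75 and -0.67, the latter not passing without RV P7 replicate 1). From P0 to P7 it fell by 1.0 ± 0.15 and 0.69 ± 0.17 (limma adjusted p = 1.57e-05 and 0.00202). Epha2 was at 2.62, 2.22 and 2.90 RPKM at LV P0, 1.48, 1.28 and 1.95 at LV P3 and 2.49, 1.44 and 2.51 at LV P7, and LV P0 and P7 overlapped. Its RV values were 3.58, 2.08 and 2.95 at P0, 1.87, 1.90 and 1.92 at P3 and 1.60 and 1.55 at P7, a fall of 0.57 ± 0.17 (limma adjusted p = 0.00904) that did not pass after upper-quartile scaling (-0.35). Epha4 was not called from P0 to P7 as deposited (0.22 in the LV and 0.24 in the RV) but was called higher in both chambers after upper-quartile scaling (0.49 each). It rose from P0 to P3 in both chambers, by 0.42 in the LV and 0.51 in the RV, the former not passing without LV P0 replicate 2, LV P3 replicate 1 or LV P3 replicate 3. Ephb3 fell in the LV (-0.45), which did not pass after upper-quartile scaling or without LV P0 replicate 1 or LV P7 replicate 2. Ephb4, the venous Eph receptor, stayed between 0.458 and 1.22 RPKM over the libraries and passed in neither chamber.

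Taking the steps singly, 6 of the 39 rose and 7 fell from P0 to P3 in the LV, where 7.26% of all entries were higher and 20.6% lower. From P3 to P7 in the LV 7 rose and 9 fell (6.56% and 27.9% of all entries). The RV had 7 rises and 3 falls to P3 (9.72% and 21.5%) and then 1 rise and 8 falls to P7 (2.5% and 14.8%). These step counts rested on few libraries. They were 7 to 15, 12 to 17, 5 to 11 and 1 to 11 in all when 1 library was left out, and the lowest RV P3 to P7 count came without RV P7 replicate 1. In the 10 libraries above, which leave 1 library in each P3 and P7 group, the 4 counts were 0, 1, 2 and 0 (4.91%, 4.87%, 10.6% and 0.56% of all entries). The step calls made there too were Efnb3 from P3 to P7 in the LV and Efnb3 and Epha4 from P0 to P3 in the RV. All other step calls named above ended in those libraries. Their sign stayed the same, which the libraries shared with the main fit largely fixed in advance. Left out singly, LV P0 replicate 1 or 3 gave the LV P3 count of 7, where 1925 of 10623 and 2191 of 10643 entries were called. For the RV, leaving out RV P0 replicate 3, RV P3 replicate 1 or RV P3 replicate 3 gave 5, 5 and 6 at P3. Over all entries 2742 of 10651, 2591 of 10656 and 2705 of 10653 were called there. Without RV P7 replicate 2 the count was 5 from P3 to P7, where 1121 of 10660 entries were called. With all 17 libraries the totals were 2975 (LV P0 to P3), 3332 (RV P0 to P3) and 1842 (RV P3 to P7) of 10668, so calls were fewer over all entries too.

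Between chambers, Ntn1 and Sema7a were lower in the RV. Over the 3 ages Ntn1 was lower by 0.66 ± 0.08 on the log2 scale (limma adjusted p = 0.000143) and Sema7a by 0.49 ± 0.07 (limma adjusted p = 0.00067). No member was called higher and 2 of 39 were called lower, beside 0.797% and 0.816% of all entries. LV and RV libraries of 1 age and number deviated together, so they were also compared within the 8 pairs, a pairing that no label names. The RV library was the lower in 8 of 8 pairs for both genes. Ntn1 differed by -0.85, -1.17 and -1.23 in the P0 pairs, by -0.60, -0.48 and -0.63 at P3 and by -0.38 and -0.08 at P7. Its gap was thus widest at P0, where the group means were 40.8 RPKM in the LV and 19.1 in the RV, and narrowest at P7. Sema7a differed by -0.18, -0.46 and -0.34 at P0, by -0.38, -0.47 and -0.47 at P3 and by -0.68 and -0.67 at P7.

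With the pairs as a block, a fit in which LV P7 replicate 3 has no mate and drops out of the chamber difference, 2 members were higher in the RV and 5 lower over the ages, beside 3.02% and 5.63% of all entries. The higher ones were Efnb3 (0.24 ± 0.05, limma adjusted p = 0.00382) and Slit3 (0.31 ± 0.06, limma adjusted p = 0.00264). Plxnd1 (-0.23), Robo4 (-0.20) and Unc5b (-0.19) joined Ntn1 and Sema7a on the lower side. None of the 39 was called over the ages in the 10 libraries above (0.00949% of all entries were), where the differences were -0.69 for Ntn1 and -0.46 for Sema7a (limma adjusted p = 0.474 and 0.513). By single age and without the block, Ntn1 was the 1 member called at P0 (-1.08, limma adjusted p = 0.000693) and at P3 (-0.57, 0.0489), and Sema7a the 1 called at P7 (-0.70, 0.0311), beside 0.141%, 0.825% and 0.159% of all entries. The P3 and P7 calls ended when any 1 library of the groups compared was left out, and some ended without a library of another age. In the paired fit the counts were 1 at P0, 5 at P3 (Ntn1 and Sema7a lower, Efnb3, Plxnc1 and Slit3 higher) and 2 at P7 (Sema7a lower, Efnb3 higher), beside 0.919%, 5.99% and 1.0% of all entries.

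**Figure D4:**
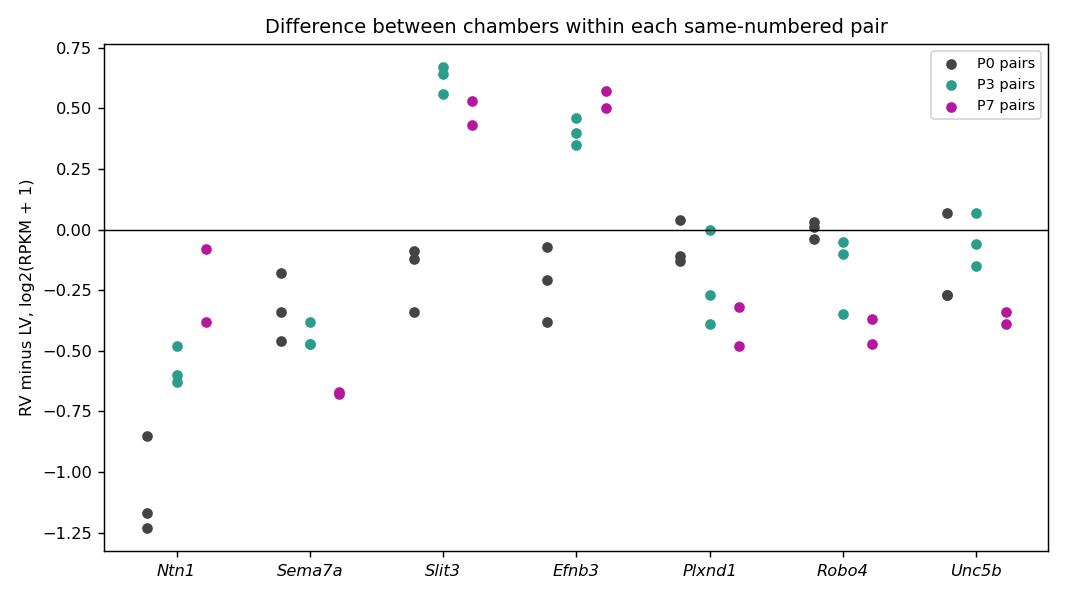
Difference between RV and LV within each same-numbered pair of 1 age, on the log2(RPKM + 1) scale, for the 7 guidance genes called over the ages in the paired fit. Ntn1 and Sema7a lie below 0 in all 8 pairs, and Slit3 and Efnb3 lie below 0 in the 3 P0 pairs and above 0 in the 5 later pairs.

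For Slit3 and Efnb3 the sign of the difference between RV and LV changed from P0 to P3, but neither gene was called between chambers at P0 in either fit. Slit3 differed by -0.09, -0.34 and -0.12 between RV and LV in the P0 pairs, by 0.64, 0.56 and 0.67 at P3 and by 0.43 and 0.53 at P7. Efnb3 differed by -0.38, -0.21 and -0.07 at P0, by 0.40, 0.46 and 0.35 at P3 and by 0.50 and 0.57 at P7. Both were thus lower in the RV in 3 of 3 pairs at P0 and higher in 5 of 5 later pairs. The test of whether the P0 to P7 change differs between chambers called none of the 39 without the block (6 had an unadjusted p under 0.05), where 0.0375% of all entries were called. Efnb3 and Ntn1 both differed by 0.76 ± 0.20 there (limma adjusted p = 0.397 each). In the paired fit 2 were called, beside 0.328% of all entries: Efnb3 (0.75 ± 0.12, limma adjusted p = 0.00755) and Ntn1 (0.85 ± 0.14, 0.00856). For the change from P0 to P3, a comparison added after the pair values were seen, none was called without the block (4 had an unadjusted p under 0.05; 0.0% of all entries were called). With the pairs, Slit3 (0.81 ± 0.13, limma adjusted p = 0.00593) and Efnb3 (0.62 ± 0.11, 0.011) were called, beside 0.947% of all entries. None of these differences passed in the 10 libraries above, where 0.00949% and 0.0% of all entries were called and the later arms held 1 library per chamber. Their sizes there were 0.72 (Efnb3) and 0.70 (Ntn1) for the change to P7, and 0.61 (Efnb3) and 0.82 (Slit3) for the change to P3. The rise of Sema7a, Robo4, Efna1 and Plxnd1 was larger in the LV by value, but the difference did not pass for any of them in either fit.

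Other genes of the same pathways (co-receptors, adaptors and effectors that act below the receptors) came from a list of 65, of which 42 were tested. In the LV 7 rose and 14 fell from P0 to P7, with a median of -0.11, and in the RV 5 rose and 16 fell, with a median of -0.18. Over all tested entries 11.8% were higher and 53.0% lower in the LV, and 9.81% and 46.1% in the RV, with medians of -0.31 and -0.29. After upper-quartile scaling the partners split 18 to 7 and 13 to 6, where all entries were 24.4% higher and 25.3% lower in the LV and 19.8% and 20.6% in the RV. The largest LV rises were Hjv (hemojuvelin, a relative of the repulsive guidance molecules) by 2.03 ± 0.19, Arhgef15 (ephexin 5, an exchange factor that acts below Eph receptors) by 1.0 ± 0.12, Kdr (the VEGF receptor that pairs with neuropilin 1) by 0.80 ± 0.13 and Rgma (a repulsive guidance molecule) by 0.68 ± 0.18. The largest LV falls were Mical2 (an actin oxidase of the family that acts below plexins) by 1.48 ± 0.13, Dpysl3 (a collapsin response mediator) by 1.01 ± 0.15, Flrt2 (a ligand of Unc5 receptors) by 0.87 ± 0.22 and Cfl1 (cofilin, which severs actin filaments) by 0.71 ± 0.08. The RV count of 21 fell to 11 without RV P7 replicate 1, where calls over all entries fell from 5964 of 10668 to 3866 of 10661. Fewer partners passed in the 10 libraries above in each chamber, and fewer of all entries passed there too.

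Markers of other cell types moved with the same ages. Of 10 endothelial genes, 7 rose and 0 fell in the LV, and their sum went from 694 to 955 RPKM at P0 to 1950 to 2160 at P7. In the RV 5 rose and 1 (Emcn) fell, with sums of 737 to 879 and 1380 to 1880. Fabp4 made up most of these sums, and the other 9 genes summed to 237 to 267 at P0 and 438 to 495 at P7 in the LV and to 238 to 294 and 344 to 350 in the RV. Both sums rose in each chamber. Of the guidance genes named above as known from endothelial cells, Robo4 rose in both chambers as deposited. Plxnd1 passed in the LV alone and Unc5b in neither, also as deposited. Nrp1, the co-receptor for VEGF, fell in both chambers as deposited but not after upper-quartile scaling. Ephb4, the venous Eph receptor, passed in neither. Of 6 epicardial genes, 5 fell in the LV and 4 in the RV (1 after upper-quartile scaling), from 35.1 to 76.1 RPKM to 16.3 to 25.0 in the LV and from 41.3 to 94.9 to 36.6 to 38.7 in the RV. At P3 their sum was 22.2 to 25.9 in the LV and 50.4 to 69.7 in the RV, the chamber in which Slit3 was then higher. At P0 the sums of the chambers overlapped, while Slit3 was lower in the RV in each pair. Of 7 tested fibroblast genes 3 rose in the LV and 5 in the RV, and of 6 macrophage genes 5 and 6 rose, with none falling in either list. Other lists held genes that moved far in both chambers. Smooth muscle Cnn1 changed by -3.22 and -3.01 and pericyte Rgs5 by 2.48 and 2.31 on the log2 scale in LV and RV, in a list of which 2 of 6 tested genes rose and 3 fell in each chamber. Plvap changed by -1.38 and -1.65, in an endocardial list of which 1 of 2 tested genes fell in each chamber. Lyve1 changed by -1.39 and -1.20, in a lymphatic list of 4 tested genes. Of these 4, 2 fell in the LV and 1 in the RV, and 0 rose. After upper-quartile scaling 1 lymphatic gene was higher and 1 lower in the LV. The 6 erythroid genes summed to 1570 to 2410 RPKM at P0, 527 to 537 at P3 and 1440 to 1890 at P7 in the LV, and to 1280 to 2920, 418 to 609 and 1110 to 1140 in the RV, lowest at P3, where Efnb3 was highest. Neuron and Schwann cell markers were low: 2 of 8 neuron genes passed the filter and rose in both chambers, and the list summed to 3.09 to 4.66 RPKM at P0 and 6.83 to 8.80 at P7. Th, which makes catecholamines in sympathetic neurons, stayed under 0.1 RPKM in all libraries, and the 6 Schwann cell genes summed to 3.75 to 5.65 RPKM. The part of these cell types in the results above was not tested.

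The 31 guidance genes below the filter had highest values up to 0.978 RPKM (Ephb2). Of these, 13 stayed under 0.1 RPKM in every library, among them Robo3, Slit1, Unc5d, Epha6 and Epha8, and 9 reached between 0.1 and 0.5, among them Sema3a, Sema3e, Efna3 and Nrp2. Another 9 reached 0.5 or more, namely Epha1, Sema3b, Unc5c, Sema5b, Efna5, Plxnb2, Ntn3, Robo2 and Ephb2. Sema3a, the repellent known for patterning cardiac sympathetic nerves, reached 0.241 RPKM at most. For 9 of the 31 the files held several entries. With no filter on low values, 10 of the 31 were called from P0 to P7 in the LV (3 higher and 7 lower) and 2 in the RV (both lower), beside 37.6% and 29.7% of all 20624 entries. These were Nrp2, Sema4f and Sema6d higher and Ephb2, Efna5, Dcc, Unc5c, Plxnb2, Robo2 and Sema3a lower in the LV, and Sema3a and Sema6d lower in the RV. Their changes ran from -0.36 to 0.20, at levels where 1 RPKM was never reached. Nrp2, with 6 entries, had at most 0.31 RPKM in its highest. The sources used here do not say how shared reads were assigned to the entries of a gene, so for such genes 1 entry's value is not the gene's total.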

How the data were processed

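The authors deposited 1 RPKM value for each of 20624 RefSeq messenger RNA entries in each library; neither header nor label names this unit, which was inferred from the values. Alignment with STAR 2.4.0j to mm10 is named per the submitters' processing notes. The sources used here give no counting tool, annotation version or filter. Names came from a RefSeq table of GRCm38.p6 (20379 entries) and GENCODE M21 (76); 169 stayed unnamed. Library depth was recovered as whole reads (tolerance 0.02 reads); intervals and floors from it cover counting error only.

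The 10668 entries that reached 1 RPKM in 2 or more libraries were tested by limma 3.58.1 with trend (R 4.3.3) on log2(RPKM + 1), in 1 fit of 6 group means over 17 libraries, two-sided, Benjamini-Hochberg adjusted over all entries per comparison and called under 0.05. Fold changes on this scale understate those of low genes. In simulated data with 200 of 10668 entries changed by a log2 size of 1 between LV P0 and P7, 193 were recovered and 11 others called. The simulated noise was independent between libraries and few entries changed, whereas 6922 were called in the data. It therefore checks the code and gives no error rate for these data. The labels call the replicates biological; whether they came from separate animals or litters is not given, so p-values measure the spread between these libraries.

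The pairing was checked on the deviations of libraries from their group mean. LV and RV libraries of 1 age with the same number correlated at 0.269 to 0.587 (8 pairs), those with other numbers at -0.402 to 0.094 (16). Deviations within a group cancel out, so the lower values are partly forced by the higher ones. The first P3 and P7 replicates also differed from the others at NM_008710 in both chambers. The labels give replicate numbers but name no pairing. Pairs of chambers within an age were therefore inferred from these values, and the paired fits rest on that inference. Across ages, same-numbered libraries correlated at -0.075 to 0.18 (32), so numbers do not pair ages.

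Full values are given for Ntn1, Sema7a and Efnb3, for members called between chambers, and for the 8 highest and 8 lowest called changes from P0 to P7 in each chamber; Slit3 and other genes in the paired results follow from these or from the paired fit. Other members are given by count and range. The members, gene lists and tests were chosen with earlier results of these data known, and no pattern shown by those results is independent support. Alternatives were upper-quartile scaling, rescaling to the listed entries, a pseudocount of 0.1, no filter, no trend, summed entries, replicate blocks, leaving out each library, the 10 libraries with at least 1 RPKM at NM_008710, and the rule without the Unc5 genes. Promoter windows came from a RefSeq table of GRCm38.p6.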

Additional observations from a re-analysis of the deposited data

Results flagged for a closer look

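The following results stood out because a test of the difference between chambers passed in the paired fit (limma), although it did not pass without the pairs. The P7 against P0 change was higher in the RV than in the LV by 0.75 on the log2 scale for Efnb3 and by 0.85 for Ntn1, against 0.76 for each and an adjusted p of 0.397 without the pairs. The P3 against P0 change was higher in the RV by 0.62 for Efnb3 and by 0.81 for Slit3, against 0.62 and 0.81 and an adjusted p of 0.706 each without the pairs. Efnb3 and Slit3 were lower in the RV in 3 of 3 pairs at P0 and higher in 5 of 5 later pairs, while Ntn1 was lower in all 8. Neither Efnb3 nor Slit3 was called between chambers at P0 in either fit. The P3 against P0 difference was tested because the pair values had been seen. The sum of the 6 epicardial markers also diverged at P3 (22.2 to 25.9 RPKM in the LV, 50.4 to 69.7 in the RV), and its part in the Slit3 difference was not tested. Groups held 2 or 3 libraries, too few for the outlier test used on larger groups.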

How the results depend on the processing

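Which choices mattered can be read from the counts of called guidance genes. Upper-quartile scaling gave 14 higher in the LV and 7 in the RV from P0 to P7, where 24.4% and 19.8% of all entries were higher. It gave 2 called between chambers at P3 and at P7, beside 184 and 35 of 10668 entries. Rescaling to the listed entries gave 12 and 7 higher, beside 2103 and 2005 entries, and 7 lower in the RV, beside 2022. In the 10 libraries with at least 1 RPKM at NM_008710, 8 were lower in the LV and 6 in the RV, the steps gave 0 and 1 (LV) and 2 and 0 (RV), the chamber comparisons gave 0 at each age and 0 lower over the ages, and 10 and 13 pathway partners were called in LV and RV. With 10 libraries and 1 per P3 and P7 group these fits had fewer samples. With no filter 30 of all 70 genes were called from P0 to P7 in the LV and 16 in the RV, beside 37.6% and 29.7% of all 20624 entries. The LV P3 count was 8 there, beside 2600 entries, and the chamber counts at P3 and P7 were 0, beside 21 and 8 entries. A pseudocount of 0.1 also gave 0 at both, beside 83 and 11 of 10668 entries, and no trend gave 0 at P3, beside 77. With the pairs as a replicate block, 2 were higher and 5 lower over the ages, 5 were called at P3, 2 at P7, 2 in the difference of the P7 change and 2 in that of the P3 change. As numbers do not pair ages, the replicate block for age comparisons is given here: 8 higher and 18 lower in the LV and 4 and 14 in the RV. Over all 10668 entries the block called 1319 higher and 5931 lower in the LV and 1089 and 5099 in the RV. No call of a guidance gene was lost under it. Summing entries changed no count by over 1.5 times, and no Unc5 gene was called between ages as deposited, so the rule without Unc5 genes gave the same age counts. Leaving out 1 library gave ranges of 7 to 15 (LV P3 against P0), 5 to 11 (RV P3 against P0), 1 to 11 (RV P7 against P3), 0 to 2 (chambers at P3), 0 to 1 (chambers at P7), 0 to 1 (difference of the P7 change), 2 to 4 lower (over the ages, 4 without RV P0 replicate 1) and 11 to 22 (RV partners). The LV P3 count was 7 without LV P0 replicate 1, where 1925 of 10623 entries were called. It was 15 without RV P0 replicate 1, where 3263 of 10611 were. The RV P7 against P3 count of 1 came where 300 of 10661 were, and the count of 11 RV partners where 3866 of 10661 were.

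Each alternative refits all or part of the same libraries, so a value already called could hardly change direction. None of the 93 called values of the 39 genes over the 12 comparisons changed direction under any of the 25 alternatives. Among the 18 genes given in full, in the comparisons of P7 with P0, of the chambers over the ages and of the difference in the P7 change, values that had not passed did so: in the RV from P0 to P7, Ntn1 at 0.21 under both scalings, Sema3f at 0.25 and 0.24 under them and 0.00 with the replicate block, and Efnb3 at -0.01 with the block; in the LV, Epha2 at 0.05 after upper-quartile scaling; between chambers, Sema4b at 0.01 after that scaling, Sema3f at -0.01 and Epha2 at -0.04 in the 10 libraries; and in the difference of changes, Robo1 at 0.01 after rescaling. Leave-one-out ranges that crossed 0 were, in the RV, -0.14 to 0.14 (Efna1), -0.17 to 0.25 (Efnb3), -0.21 to 0.10 (Ntn1) and -0.22 to 0.16 (Sema3f); between chambers, -0.01 to 0.09 (Efna2), -0.05 to 0.06 (Epha2), -0.13 to 0.02 (Sema3c), -0.03 to 0.10 (Sema3f) and -0.05 to 0.01 (Sema4b); and in the difference, -0.10 to 0.19 (Efna2), -0.43 to 0.09 (Plxnc1), -0.27 to 0.33 (Robo1), -0.40 to 0.02 (Sema3c) and -0.13 to 0.32 (Slit2). The cause was not tested. Depth limits genes under 1 RPKM, where 25 reads were the fewest behind a tested value.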
